A study of Mus musculus with 6 samples.

Results

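The annexin family genes described here are Anxa1, Anxa2, Anxa3, Anxa4, Anxa5, Anxa6, Anxa7, Anxa8 and Anxa11, 9 of the 21841 genes listed in a bulk RNAseq table of sorted LYVE-1+ TAMs. The family was chosen by 1 member: Anxa1 was selected on its fold change with KCL-HO-1i in these same libraries, so its values are given as a description without a test. The question was whether the other 8 annexins followed it. MMTV-PyMT mice carry a transgene that drives the polyoma middle T antigen from a mammary promoter, and tumors arise spontaneously in their mammary glands. All 6 mice were of the FVB/N-Tg(MMTV-PyVT)634Mul/J strain with a genotype given as WT, and their age is not given in the sources used here. Over 36 h, 3 mice received vehicle and 3 received KCL-HO-1i, a tin porphyrin inhibitor of the heme-degrading enzyme HO-1, by i.p. injection at 25 µmol/kg/day. From the digested tumor of each mouse 5000 CD206+LYVE-1+ macrophages were sorted by FACS. The codes of the vehicle mice all begin with PY121 and those of the KCL-HO-1i mice with PY119 or PY120, so a difference between these codes and an effect of treatment cannot be told apart.

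Annexins are cytosolic proteins that bind acidic phospholipids of membranes when calcium rises. Anxa1 is secreted by myeloid cells, is induced by glucocorticoids and signals through formyl peptide receptors to limit neutrophil entry and promote the uptake of apoptotic cells. Other members scaffold the plasma membrane, take part in its repair, or bind S100 and related EF-hand proteins.

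Library totals of estimated counts, in the order of replicates 1 to 3, were 206728, 215647 and 338255 for vehicle, against 207812, 319737 and 535224 for KCL-HO-1i. Some libraries stood apart from the rest. KCL-HO-1i replicate 3 had 41.8% of its counts on mitochondrial genes, against 1.17% to 9.68% in the other libraries, and KCL-HO-1i replicate 1 had counts for 7584 genes, against 10781 to 17318 in the others. The changes of Anxa2, Anxa3, Anxa4, Anxa5 and Anxa7 are therefore also given without each of these libraries. The 8 annexins other than Anxa1 together took 45, 30 and 43 counts with vehicle, against 161, 208 and 306 after KCL-HO-1i. Reads without molecular identifiers are not independent molecules, so intervals and floors given for these counts cover counting error only.

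The sorted cells were checked against markers of their label. Of 15 general macrophage genes, 14, 9 and 11 had a count in vehicle mice, against 11, 14 and 14 in treated mice. Their summed counts were 268, 58 and 102 in vehicle mice, against 939, 1742 and 1922 in treated mice, with Lyz2 the most abundant. Of these genes 8 were tested by edgeR, 7 had a positive log2 fold change with a median of 3.14, and 6 of the 15 were higher in every treated library than in every vehicle library (3.89% of all genes). Exceptions, named after their values were seen, include Fcgr3, which was counted 0, 0 and 0 times against 72, 0 and 106, Cd68 8, 9 and 8 times against 0, 14 and 4, and Spi1 2, 0 and 6 times against 0, 2 and 0. Of the sort markers, Lyve1 was counted 22, 8 and 12 times against 8, 38 and 36, and Mrc1, which encodes CD206, 12, 0 and 3 times against 31, 31 and 104. Macrophage transcripts were thus scarce in the libraries labelled vehicle, and the annexin values differ between groups beside this difference in macrophage counts. In bulk libraries, fewer macrophages and less macrophage RNA per cell cannot be told apart.

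Anxa1, the pro-resolving member by which the family was chosen, was counted 0, 0 and 2 times in vehicle replicates 1 to 3, against 23, 124 and 71 times in KCL-HO-1i replicates 1 to 3. All 3 KCL-HO-1i libraries lay above all 3 vehicle libraries, and KCL-HO-1i replicate 1 was the lowest of the treated ones. After TMM normalization the level of Anxa1 was 2.28 ± 3.94 CPM (SD, n = 3) in vehicle mice, against 285 ± 197 CPM (SD, n = 3) in treated mice. Summed over libraries, the ratio of normalized counts was 97.2, with a 95% counting interval of 26.6 to 808, which is wide because the vehicle libraries held 2 counts in all. As Anxa1 was selected on its fold change in these libraries, this interval describes counting error in selected values and tests nothing. The fitted log2 fold change of Anxa1 was 6.45 and went from 5.80 to 9.08 with each library left out in turn, the upper value without vehicle replicate 3, where no vehicle count of Anxa1 is left and a fitted value is no bound. Anxa1 lies on the minus strand of chromosome 19 of GRCm38, from 20373428 to 20390944 in GENCODE M21.

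Anxa2, which forms a heterotetramer with S100a10 at the plasma membrane and takes part in plasmin formation, was counted 9, 0 and 0 times in the vehicle mice, against 61, 63 and 204 times in the treated mice. The groups did not overlap, all 9 vehicle counts came from vehicle replicate 1, and KCL-HO-1i replicate 3 was the highest. The normalized level of Anxa2 was 16.8 ± 29.0 CPM (SD, n = 3) in vehicle mice, against 422 ± 269 CPM (SD, n = 3) in treated mice. Its log2 fold change was 4.69 (standard error 1.42, 95% confidence interval 1.56 to 7.83). Anxa2 did not pass edgeR's quasi-likelihood test across all genes (Benjamini-Hochberg adjusted p = 0.316), and it was called by DESeq2 without a low-count filter (adjusted p = 0.0360). Over the 16 alternative fits that tested Anxa2, its adjusted p from edgeR, DESeq2 or limma ranged from 0.00697 to 0.809, and 5 of these fits called it. Of the 5, 1 left out vehicle replicate 1, which holds every vehicle count of Anxa2. Without KCL-HO-1i replicate 3 the log2 fold change of Anxa2 was 4.17, without KCL-HO-1i replicate 1 it was 5.23, and limma voom gave 6.19. The mouse genome also holds a pseudogene of Anxa2, and how the reads were divided between such copies is not known here.

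Anxa5, which binds phosphatidylserine exposed on apoptotic cells, was counted 0, 0 and 0 times in the vehicle mice, against 46, 28 and 17 times in the treated mice. It was detected in every KCL-HO-1i library and in no vehicle library, and KCL-HO-1i replicate 3, the deepest library, held the fewest counts of the treated ones. The normalized level of Anxa5 with KCL-HO-1i was 128 ± 76.8 CPM (SD, n = 3), at least 9.05-fold higher than a floor of 3 counts in each vehicle library. Without KCL-HO-1i replicate 3 it was at least 11.4-fold higher, and without KCL-HO-1i replicate 1 at least 6.10-fold. Anxa5 missed the low-count filter because its lowest KCL-HO-1i library, at 31.8 CPM of the library total, fell under the limit of 37.4 CPM, so edgeR did not test it. DESeq2 without a filter called Anxa5 (adjusted p = 0.00664), and over the 8 alternative fits of edgeR and DESeq2 that tested it the adjusted p ranged from 0.00664 to 0.809, with 2 calls.

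Anxa7, linked to membrane fusion and granule secretion, was counted 14, 6 and 13 times in the vehicle mice, against 19, 30 and 37 times in the treated mice. Normalized to library size, its lowest KCL-HO-1i library (87.6 CPM) lay just above its highest vehicle library (78.2 CPM). The level of Anxa7 was 51.2 ± 24.3 CPM (SD, n = 3) in vehicle mice, against 113 ± 23.3 CPM (SD, n = 3) in treated mice, a log2 fold change of 1.14 (standard error 0.96, 95% confidence interval -0.97 to 3.26, edgeR adjusted p = 0.884), which was 1.84 without vehicle replicate 1, 1.59 without KCL-HO-1i replicate 1 and 1.18 without KCL-HO-1i replicate 3. Anxa4, an annexin of epithelial and secretory cells, was counted 4, 9 and 10 times in the vehicle mice, against 7, 36 and 48 times in the treated mice. KCL-HO-1i replicate 1 fell within the vehicle range of Anxa4, so the groups overlapped, and the other KCL-HO-1i libraries lay above it. The log2 fold change of Anxa4 was 1.74 (standard error 1.08, 95% confidence interval -0.63 to 4.11, edgeR adjusted p = 0.802), and 2.49 without KCL-HO-1i replicate 1. Without KCL-HO-1i replicate 3 Anxa4 did not pass the filter.

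Anxa3, an annexin abundant in neutrophils, was counted 9, 7 and 9 times in the vehicle mice, against 11, 31 and 0 times in the treated mice. The treated libraries of Anxa3 spanned the vehicle range, from no count in replicate 3 to the highest level in replicate 2. The log2 fold change of Anxa3 was 0.57 (standard error 1.47, 95% confidence interval -2.66 to 3.81, edgeR adjusted p = 0.952). Its interval covers changes of several fold in either direction. Without KCL-HO-1i replicate 3, which held no count of Anxa3, the log2 fold change was 1.36, and without KCL-HO-1i replicate 1 it was 0.91. In contrast, limma voom with quality weights gave -0.50 and the fit with the replicate block -0.48.

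Anxa6, Anxa8 and Anxa11, like Anxa5, did not pass the filter. Anxa6, a large annexin with a duplicated core that acts in endosomal traffic, was counted 2, 0 and 2 times in the vehicle mice, against 0, 14 and 0 times in the treated mice, so all its treated counts came from replicate 2. Anxa8, best known from epithelial cells, was counted 5, 1 and 5 times in the vehicle mice, against 17, 3 and 0 times in the treated mice, and its groups overlapped. Anxa11, which links RNA granules to lysosomes and binds the EF-hand protein Pdcd6, was counted 2, 7 and 4 times in the vehicle mice, against 0, 3 and 0 times in the treated mice. DESeq2 without a filter gave log2 fold changes of 1.69 for Anxa6 (standard error 2.58), 0.89 for Anxa8 (1.82) and -2.33 for Anxa11 (2.29). All counts of Anxa6 and Anxa11 lie within the range of the receptor genes described below. None of these 3 fold changes settles a direction. Rounded counts of Anxa11 overlapped between groups, since KCL-HO-1i replicate 2 (12.0 CPM) lay above vehicle replicate 1 (11.2 CPM), whereas the unrounded estimates did not overlap. DESeq2 gave Anxa8 an adjusted p of 0.963, and without a low-count filter edgeR gave 0.980 for Anxa8, 0.922 for Anxa6 and 0.900 for Anxa11. Annexins outside the list were as low, with 1, 2 and 8 counts against 12, 1 and 3 for Anxa9 and 2, 1 and 6 against 0, 1 and 0 for Anxa10.

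**Figure D1:**
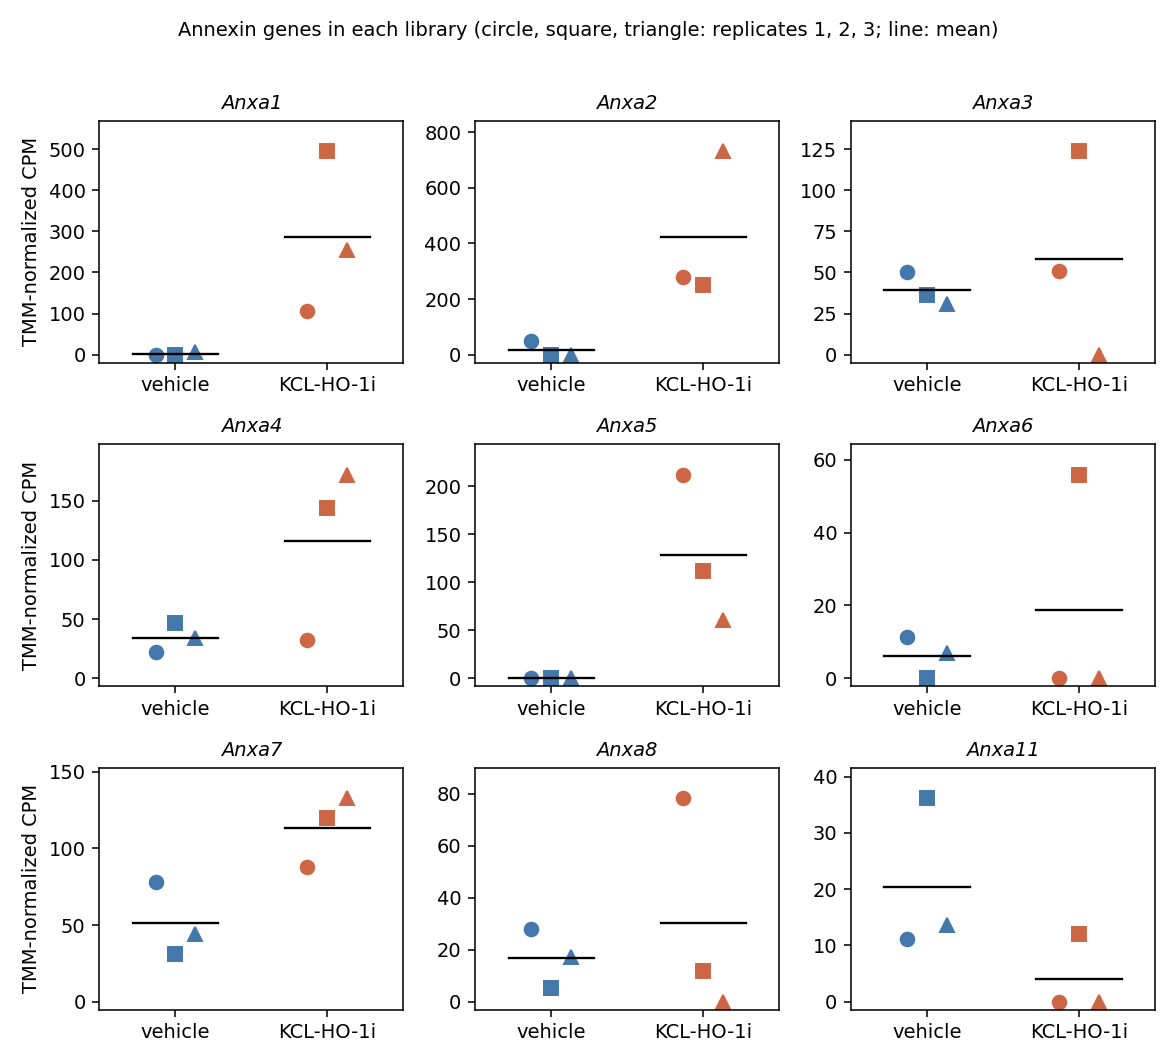
TMM-normalized CPM of each of the 9 annexin genes (vertical axes from 0, a scale of its own for each gene) in the 3 vehicle and 3 KCL-HO-1i libraries, with a point for each mouse and a line at the group mean. Anxa1, Anxa2, Anxa5 and Anxa7 have no overlap between groups on this scale, and Anxa5 is at 0 in all 3 vehicle libraries. Per general macrophage count, Anxa3, Anxa7 and Anxa11 lie lower in every treated library, a scale on which the median of all genes falls as well.

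Of the 8 annexins other than Anxa1, edgeR's quasi-likelihood test called 0, as it did for 0 of all 7263 genes tested (0%). Of the 8, edgeR and limma voom tested 4, and DESeq2 gave 6 an adjusted p. At an unadjusted p under 0.05, 1 of the 4 tested (Anxa2) was higher, against 364 of all genes tested (5.01%). DESeq2 without a filter called 2 of its 6 higher, Anxa2 and Anxa5, against 102 of the 11562 genes to which it gave an adjusted p (0.882%). Limma voom with quality weights called 1 of its 4 higher, Anxa2, against 293 of 7263 genes (4.03%). Groups did not overlap, with KCL-HO-1i higher, for 3 of the 8, Anxa2, Anxa5 and Anxa7, against 759 of 19518 genes with a count (3.89%). Divided by general macrophage counts, Anxa3, Anxa7 and Anxa11 were lower in every treated library. The share of all genes that were lower in this way is not given here, so no result about annexins is drawn from it. On this scale Anxa2 and Anxa5 could not be placed, because vehicle counts of 0 there allow levels within the treated range. By library size, rounded counts were lower in every KCL-HO-1i library for 0 of the 8, against 2554 genes (13.1%). Unrounded estimates of Anxa11 were lower in every KCL-HO-1i library, and the share of all genes on unrounded estimates is not given here. An exact permutation test of 3 mice against 3 cannot give a p under 0.1, so non-overlap of a single annexin reaches no smaller value. Without KCL-HO-1i replicate 3, the 3 annexins were joined by Anxa3 (6.38% of genes), and without KCL-HO-1i replicate 1 by Anxa4 (8.32% of genes), settings chosen after seeing the data.

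Only 4 of the 8 other annexins passed the filter, and a gene can pass through the group in which it is high. The median log2 fold change of these 4 was 1.44 against -0.52 for all genes tested, and it was -2.29 with library scaling to the general macrophage genes, which moved the median of all genes to -4.27, a shift that all genes share. Under that scaling the log2 fold change was 2.28 for Anxa2, -2.28 for Anxa4, -2.30 for Anxa7 and -2.99 for Anxa3, each above the median of all genes on that scale. Anxa1 was then at 2.85, and Anxa5 at a level under its vehicle floor, which allows no fold. Over all 8, with fitted values from DESeq2 and Anxa5 at its bound, the median log2 fold change was 1.47. In the same fit the median was -0.67 over 19518 genes and -0.47 over genes with an adjusted p, which Anxa6 and Anxa11 lack.

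**Figure D2:**
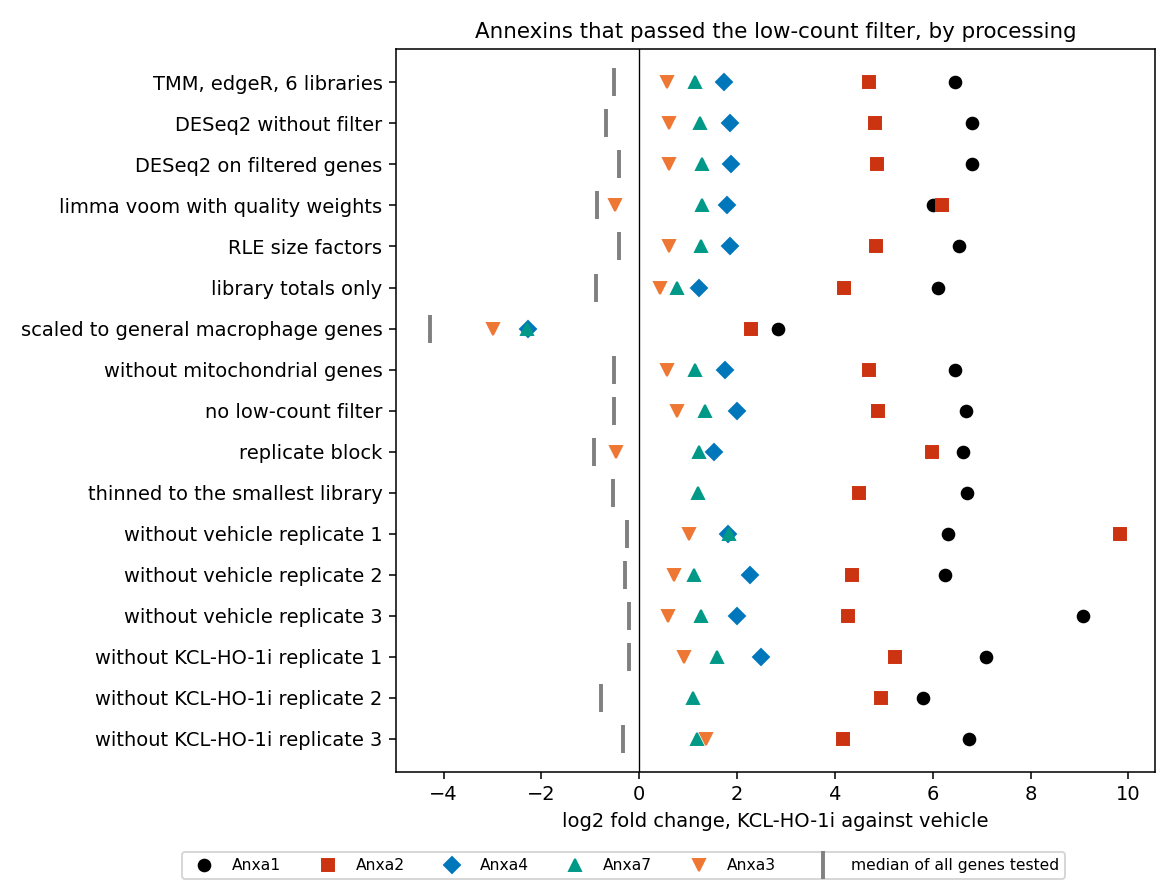
Log2 fold change of KCL-HO-1i against vehicle (horizontal axis) for the 5 annexins that passed the filter, with a line of symbols for each way of processing and a grey bar at the median of all genes tested. Anxa1 and Anxa2 lie right of 0 throughout (at 9.08 and 9.84 where no vehicle count is left), whereas Anxa4, Anxa7 and Anxa3 lie at -2.28, -2.30 and -2.99 when libraries are scaled to general macrophage genes (all genes at -4.27), and Anxa3 is also negative with limma voom and with the replicate block.

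Per 1000 general macrophage counts, the 8 annexins other than Anxa1 together took 168, 517 and 422 counts in vehicle mice, against 171, 119.4 and 159 in treated mice. The highest of these values are those of vehicle replicates 2 and 3, which hold 58 and 102 macrophage counts. Anxa2 alone took 33.6, 0 and 0 counts per 1000 macrophage counts in vehicle mice, against 65.0, 36.2 and 106 in treated mice. A floor of 3 counts of Anxa2 in vehicle replicate 2 would stand at 51.7 on this scale, above KCL-HO-1i replicate 2, so the order of the groups is not settled there. Anxa7 took 52.2, 103 and 127 in vehicle mice, against 20.2, 17.2 and 19.3 in treated mice, the opposite order. Anxa3 and Anxa11 were likewise lower in every treated library on this scale. As the share of all genes lower in this way is not given here, no result about annexins is drawn from these orders. The part of macrophage RNA content in the annexin differences was not tested.

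Levels were compared between annexins as TMM-normalized CPM per kb of the longest transcript in GENCODE M21. With KCL-HO-1i, Anxa2 (185 ± 118, SD, n = 3) and Anxa1 (170 ± 117) were highest, followed by Anxa5 (74.1 ± 44.4), Anxa4 (44.3 ± 28.2), Anxa7 (39.1 ± 8.02), Anxa3 (36.5 ± 39.0), Anxa8 (16.02 ± 22.4), Anxa6 (7.49 ± 12.97) and Anxa11 (1.46 ± 2.53). With vehicle the order was Anxa3 (24.5 ± 6.33), Anxa7 (17.6 ± 8.38), Anxa4 (13.1 ± 4.61), Anxa8 (8.90 ± 6.06), Anxa11 (7.44 ± 5.04), Anxa2 (7.35 ± 12.7), Anxa6 (2.41 ± 2.26), Anxa1 (1.36 ± 2.35) and Anxa5 at 0. Neighbours in either order differed by less than the larger of their SDs. These are orders of group means, and single libraries depart from them: in KCL-HO-1i replicate 3 Anxa5 (9.82 counts per kb) lay below Anxa4 (18.3) and Anxa7 (12.7).

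Olfactory and vomeronasal receptor genes, best known from sensory neurons, were used as a reference for low annexin counts. Over 1471 such genes with a known length, the 95th percentile was 7.42, 8.01 and 9.47 counts per kb in vehicle mice, against 8.89, 6.58 and 9.32 in treated mice. Receptor genes took 6.37%, 5.97% and 6.39% of all counts in vehicle mice, against 4.14%, 3.24% and 2.19% in treated mice. Of the 8 annexins other than Anxa1, none lay above that percentile in any vehicle library (0 of 24 pairs of gene and library), and 12 of 24 pairs did with KCL-HO-1i. The share of all genes above the percentile in each group is not given here, so no result about annexins is drawn from these pairs. Anxa1, Anxa2 and Anxa5 were above it in all 3 treated libraries, Anxa4 and Anxa7 in 2, Anxa3 and Anxa8 in 1, and Anxa6 and Anxa11 in 0. The vehicle counts of Anxa3, Anxa4, Anxa7, Anxa8 and Anxa11 therefore sat in the range of the receptor genes, and no fold change from them rests on a vehicle level that stands above it.

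**Figure D3:**
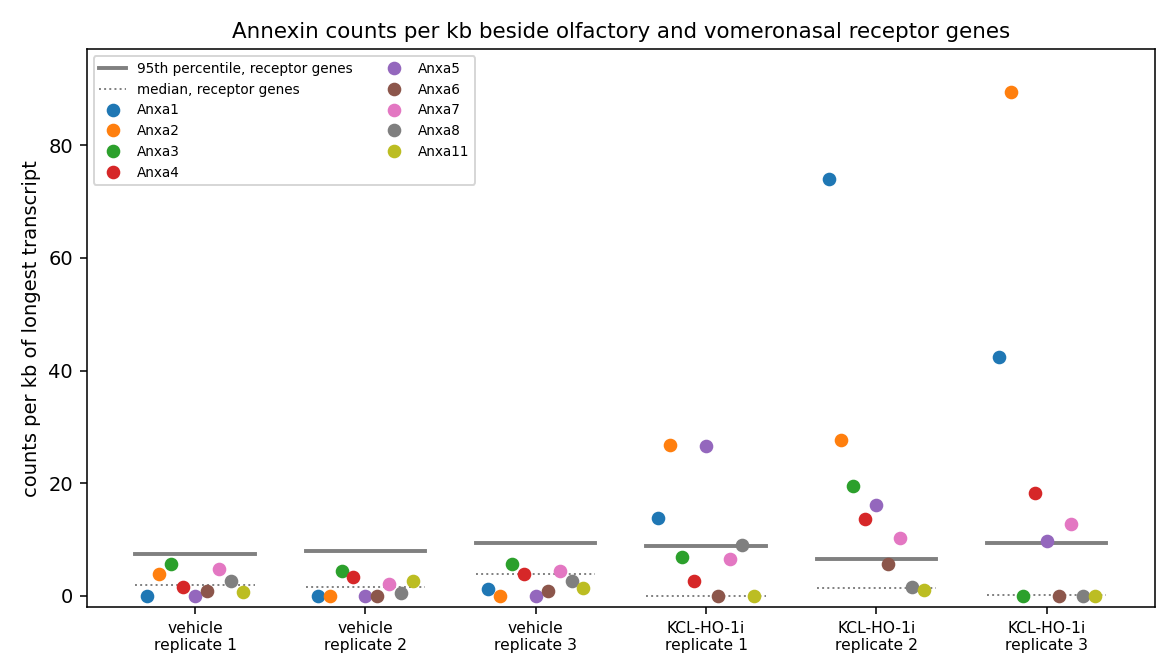
Counts per kb of longest transcript (vertical axis) for the 9 annexins in each of the 6 libraries, with grey lines at the median (dotted) and the 95th percentile (solid) of 1471 olfactory and vomeronasal receptor genes. No annexin exceeds the solid line with vehicle, and Anxa1, Anxa2 and Anxa5 exceed it in all 3 KCL-HO-1i libraries. The share of all genes above the line is not given.

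Proteins that bind annexins were described next. Of 16 listed EF-hand proteins that bind annexins or are close relatives of such proteins, 7 passed the filter, 6 of these had a positive log2 fold change, and the median was 2.61 beside -0.52 for all genes. This median was 1.9004 over the 15 genes kept with no low-count filter, went from 1.84 without KCL-HO-1i replicate 2 to 4.76 without vehicle replicate 1, and was 4.10 with limma voom. Scaled to general macrophage genes it was -0.18 beside -4.27 for all genes. EdgeR called 0 of them, 2 had an unadjusted p under 0.05 (5.01% of all genes, higher), and DESeq2 called 2, S100a1 and S100a6 (0.882% of all genes, higher). S100a10, the partner of Anxa2, was counted 47, 0 and 3 times in the vehicle mice, against 66, 290 and 214 times in the treated mice (log2 fold change 3.04, standard error 1.41, edgeR adjusted p = 0.632). As for Anxa2, the vehicle counts of S100a10 came mostly from replicate 1. S100a6, which binds several annexins, was counted 9, 0 and 8 times in the vehicle mice, against 83, 90 and 95 times in the treated mice (log2 fold change 3.78, standard error 1.10, edgeR adjusted p = 0.309). S100a1 had a log2 fold change of 4.22 (edgeR adjusted p = 0.322), and S100a4 was counted 62, 0 and 1 times against 80, 120 and 85.

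Counts of the formyl peptide receptors that bind Anxa1 overlapped between groups. Fpr2 was counted 7, 0 and 14 times in the vehicle mice, against 5, 10 and 25 times in the treated mice, and Fpr1 was counted 15, 6 and 7 times against 14, 13 and 0, both named after their values were seen. Among 20 genes of resolution mediators and their receptors, 7 were tested by edgeR, 2 had a positive log2 fold change and 0 were called, with 1 at an unadjusted p under 0.05 (5.01% of all genes) and 1 called by DESeq2, Alox5ap (0.882% of all genes). Their median was -0.71 beside -0.52 for all genes, -0.046 without KCL-HO-1i replicate 3, and -4.48 beside -4.27 under the macrophage scaling. Alox5ap, which presents arachidonic acid to 5-lipoxygenase, was counted 3, 4 and 1 times in the vehicle mice, against 12, 90 and 77 times in the treated mice. Of the other abundant genes of this list, Lgr6 had a log2 fold change of 0.066, Cmklr1 of -1.22 and Gpr37 of -1.84. The glucocorticoid response list, whose program includes Anxa1, had 7 of 12 genes tested by edgeR and 6 with a positive log2 fold change, with 0 called, 4 at an unadjusted p under 0.05 (5.01% of all genes) and 3 called by DESeq2, Dusp1, Zfp36 and Mt1 (0.882% of all genes). Its median log2 fold change was 3.52 over these 7, beside -0.52 for all genes. It was 1.38 over all 12 with no low-count filter and 2.77 without KCL-HO-1i replicate 1. Scaled to general macrophage genes it was 0.69 beside -4.27 for all genes. Dusp1 was counted 28, 2 and 0 times against 433, 257 and 746, and Mt2 was counted 22, 0 and 0 times against 93, 144 and 107. Mt1 and Zfp36 had log2 fold changes of 4.50 and 4.49. Of genes named after their values were seen, Nr3c1 and Klf9 had log2 fold changes of 1.32 and 1.19. In contrast, Fkbp5, a direct glucocorticoid receptor target, was counted 15, 7 and 33 times against 0, 13 and 7. Tsc22d3 was counted 0, 2 and 4 times against 0, 7 and 0, Per1 3, 6 and 26 times against 0, 3 and 10, and Sgk1 4, 19 and 1 times against 0, 8 and 20.

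For apoptotic cell uptake, in which Anxa1 and Anxa5 act at phosphatidylserine, 9 of 20 genes were tested, 7 had a positive log2 fold change and the median was 1.39 beside -0.52 for all genes, or -2.08 beside -4.27 under the macrophage scaling. EdgeR and DESeq2 each called 0 of them, with 2 at an unadjusted p under 0.05 (5.01% of all genes), Gas6 (22, 0 and 4 counts against 100, 90 and 110) and Cd36 (0, 0 and 12 against 31, 53 and 46). Rac1 and Pros1 of the same list had log2 fold changes of 1.08 and 2.27. For membrane repair, a process that uses Anxa1, Anxa2 and Anxa6, 6 of 17 genes were tested, 5 had a positive log2 fold change and the median was 0.90, 0.35 over the 16 genes kept with no low-count filter, or -2.87 under the macrophage scaling (all genes -4.27). EdgeR and DESeq2 called 0 of these, and 1 had an unadjusted p under 0.05 (5.01% of all genes), Vps4b (10, 21 and 43 counts against 124, 48 and 118). Ehd1, Pdcd6ip and Syt7 had log2 fold changes of 0.80, 1.56 and -0.13. For plasminogen activation, in which Anxa2 and S100a10 act, 1 of 8 genes was tested, Eno1 (log2 fold change 0.46), with 0 called by edgeR or DESeq2 and 0 at an unadjusted p under 0.05, and Plau and Plgrkt had at most 11 counts in any library.

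Likeness to Anxa1 across the 6 libraries was measured as the root mean square difference of log2 CPM (prior count 2), each gene centred on its own mean, among the 7262 other genes that passed the filter. The closest were Tmem256 (0.41), Atp6v1h (0.55), Pfn1 (0.57), Vmn2r20 (0.58) and Tspo (0.65). Tmem256 was counted 0, 0 and 6 times in the vehicle mice, against 48, 143 and 93 times in the treated mice, close to the counts of Anxa1. Of the annexins that passed the filter, Anxa2 was nearest at rank 177 (1.35), then Anxa4 at 457 (1.71), Anxa7 at 625 (1.88) and Anxa3 at 2802 (2.71). Anxa5, Anxa6, Anxa8 and Anxa11 did not pass it and were not ranked. Vmn2r20, a vomeronasal receptor gene, was counted 0, 0 and 0 times against 23, 40 and 53, so a gene best known from sensory neurons shared the pattern of Anxa1.

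Promoters of Anxa1, Anxa2 and Anxa5 are shown because these genes lay above the 95th percentile of the receptor genes in all 3 treated libraries. Each is the 250 bases before the RefSeq start on GRCm38.p6, 5′ to 3′ on the strand of the gene, with motifs in capitals. The motifs searched on both strands were AP-1 (TGANTCA, in 6.75% of 32851 promoters), an NRF2 core (TGACNNNGC, 10.2%), a Sp1 box (GGGCGG, 32.7%), a glucocorticoid motif (AGAACA, 16.1%) and a TATA box (TATAAA, 12.4%), none of which overlapped another in these promoters. Anxa1 is on the minus strand of chr19:20390672-20390921, Anxa2 on the plus strand of chr9:69453433-69453682 and Anxa5 on the minus strand of chr3:36475888-36476137.
Anxa1: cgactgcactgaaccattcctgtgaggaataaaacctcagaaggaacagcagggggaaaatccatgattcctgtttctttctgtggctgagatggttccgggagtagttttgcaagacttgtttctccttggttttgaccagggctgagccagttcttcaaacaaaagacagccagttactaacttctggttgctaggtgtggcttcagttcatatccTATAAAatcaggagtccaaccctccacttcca
Anxa2: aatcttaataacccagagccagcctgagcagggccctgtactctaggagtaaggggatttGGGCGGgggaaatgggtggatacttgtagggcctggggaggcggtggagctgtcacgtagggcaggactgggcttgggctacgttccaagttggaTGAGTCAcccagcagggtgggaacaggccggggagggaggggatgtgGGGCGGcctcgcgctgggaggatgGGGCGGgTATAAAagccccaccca
Anxa5: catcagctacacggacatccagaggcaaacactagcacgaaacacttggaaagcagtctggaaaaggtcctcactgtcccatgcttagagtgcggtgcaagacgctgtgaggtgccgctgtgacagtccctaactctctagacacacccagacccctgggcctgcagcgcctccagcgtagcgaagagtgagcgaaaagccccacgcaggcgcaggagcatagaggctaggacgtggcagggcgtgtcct
The Anxa1 promoter holds a TATA box that begins 32 bases before the start. The Anxa2 promoter holds an AP-1 motif that begins 95 bases before the start, Sp1 boxes at 190, 48 and 24 bases and a TATA box at 17 bases. None of the motifs searched occurs in the Anxa5 window, and these matches are a description of sequence, not of binding.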

How the data were processed

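CD206+LYVE-1+ TAMs of 6 MMTV-PyMT mice were profiled by bulk RNAseq. The submitters' processing notes name FastQC 0.11.9, STAR 2.7.9a, Salmon 1.9.0, DESeq2 and the build mm10. The authors deposited estimated counts for each gene, unscaled for depth. Their methods call the table TPM counts, whereas most values are whole and library totals differ, so the values were treated as counts. If they were TPM, levels per kb and counting intervals would not hold. The values were rounded to whole numbers here, filtered with filterByExpr (minimum count 10, minimum total 15), TMM-normalized and compared by edgeR's quasi-likelihood method (edgeR 4.0.16, R 4.3.3) with no covariate. Genes were called at a Benjamini-Hochberg adjusted p under 0.05 with a log2 fold change beyond 0.6 either way. The standard error was the log2 fold change divided by the square root of F. DESeq2 1.42.0 and limma 3.58.1 were alternatives. Every limma voom value given here comes from a fit with quality weights, and voom without them was not run. Counting intervals are exact binomial intervals of pooled counts. Lengths and positions come from GENCODE M21 and promoters from RefSeq. The fits were also run on simulated counts, changed only in genes with higher mean counts than most annexins here. No outcome is given, so nothing about tests at such low counts is drawn from it. By rule, named genes are all annexins, the 4 genes of each pathway list with the highest mean CPM and any called, and the 5 genes most like Anxa1, except 1 gene that is not reported here. Fpr1, Fpr2, Fkbp5, Nr3c1, Klf9, Tsc22d3, Per1, Sgk1 and all marker genes are outside this rule and were named with their values seen. The members and lists were chosen with earlier results of these data known.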

Additional observations from a re-analysis of the deposited data

How the results depend on the processing

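EdgeR's quasi-likelihood test called 0 genes and 0 of the 8 annexins other than Anxa1. DESeq2 called 165 genes and 2 annexins without a filter and 236 genes and 1 annexin on the filtered genes, limma voom 299 and 1, edgeR without a low-count filter 82 and 2, and edgeR with at least 10 counts in every library 67 genes, where no annexin was left to test. Scaled to general macrophage genes, edgeR called 5265 genes, of which 9 were higher, and 0 annexins. With each library left out in turn it called 0 to 74 genes and 0 to 1 annexins, the upper values without vehicle replicate 1. The median log2 fold change of the other annexins tested was 1.44 over 4 genes. It was 2.85 after thinning to the smallest library, over Anxa2 and Anxa7 alone, whose median in the main fit was 2.92. With libraries left out it was 1.84 to 3.02 over 2 to 5 genes, so these values differ in their genes as well as their libraries. Macrophage scaling moved the median of all genes from -0.52 to -4.27 and that of these annexins to -2.29, a shift shared by all genes. Values that it turned from positive to negative, each above that of all genes, were those of Anxa3 (-2.99), Anxa4 (-2.28), Anxa7 (-2.30), EF-hand proteins (-0.18), apoptotic cell uptake (-2.08), membrane repair (-2.87) and plasminogen activation (-2.87), whereas resolution mediators and receptors, negative in the main fit, lay at -4.48. Limma voom with quality weights reversed Anxa3 (-0.50) and plasminogen activation (-0.051), so the method and the weights changed together. Plasminogen activation was -0.10 to 0.94 with libraries left out. The causes were not tested. Replicate numbers belong to different mice, and deviations of same-numbered libraries correlated at -0.0026, 0.055 and -0.033. With the replicate block, 0 genes and 0 annexins were called, the median of the other annexins was 1.37 and Anxa3 was -0.48. The number of other annexins higher in every treated library was 3 (3.89% of genes). It was 2 with macrophage scaling (0.389% of genes), which rests on vehicle counts of 0. With libraries left out it was 3 to 4 (4.62% to 8.32% of genes), settings added after seeing the data. Anxa6, Anxa8 and Anxa11 held 17 counts or fewer in each library, and 0 each in the deepest, KCL-HO-1i replicate 3. The part of depth in these low counts was not tested.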

Other observations

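Markers of other cells were examined beside the annexins. Of 14 epithelial and tumor genes, summed counts were 77, 37 and 93 in vehicle mice, against 350, 138 and 229 in treated mice, with the milk protein gene Csn3 the most abundant (39, 1 and 18 counts against 244, 79 and 176) and Csn2 and Wap at 0 in all vehicle libraries and in KCL-HO-1i replicate 2. Without these 3 milk protein genes, left out after their values were seen, the other 11 summed to 38, 36 and 75 counts against 42, 59 and 10. Of all 14 genes, 1 (Csn3) was higher in every treated library (3.89% of all genes) and 2 were lower in every treated library (13.1% of all genes). The 11 neutrophil genes summed to 56, 33 and 57 counts against 39, 49 and 30, with Cxcr2 the most abundant, Elane at 0 in all 6 libraries and Mpo at 0 in all KCL-HO-1i libraries. Monocyte genes summed to 97, 68 and 117 against 76, 41 and 68, and endothelial genes to 100, 76 and 171 against 27, 89 and 65. The part of milk protein transcripts in the annexin differences was not tested.

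The 12 genes of LYVE-1+ macrophages summed to 847, 87 and 186 counts in vehicle mice, against 3303, 8991 and 5579 in treated mice, with Ccl8 the most abundant. Fibroblast genes summed to 59, 58 and 104 against 23, 28 and 66, T and NK cell genes to 13, 28 and 36 against 24, 26 and 14, and B cell genes to 16, 7 and 14 against 10, 18 and 1. Vehicle replicate 1 held most of the LYVE-1+ macrophage counts of its group, as it did for Anxa2 and S100a10.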
